A study of Mus musculus with 6 samples.

Results

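The epidermal differentiation complex is a gene cluster on mouse chromosome 3 that encodes the structural proteins of the cornified layer, and 44 of its genes are described here out of 30142 genes measured. Members were chosen by name: every gene whose symbol begins with Lce (late cornified envelope) or Sprr (small proline-rich), together with Flg, Flg2, Hrnr, Rptn, Tchh, Tchhl1, Crnn, Lor, Ivl, Kprp and Crct1. Each member was read by 1 probe set that names no other gene. In RefSeq the members lie on chromosome 3 between 92080271, the first base of Lor, and 93471980, the last base of Tchhl1 (GRCm38.p6). They comprise 13 Lce1, 6 Lce3 and 1 Lce6 gene, 13 Sprr genes, 7 genes of the S100-fused filaggrin family, and Lor, Ivl, Kprp and Crct1. Among the Sprr genes, Sprr2g and Sprr2j-ps are annotated as transcribed pseudogenes.

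RNA came from epidermal sheets of mouse embryos at E18.5, 3 conditional knockouts of Rptor (Rptor cKO, arrays 1 to 3) and 3 wild-type littermates (arrays 4 to 6). Rptor encodes Raptor, the subunit that presents substrates to the kinase complex mTORC1, and the series asks how loss of this complex acts on AKT feedback, lysosomal genes and EGFR. Littermates were sorted by appearance and then genotyped, and epidermis was lifted from dermis with ammonium thiocyanate. The sources used here give no Cre driver, deleted exons, strain or treatment.

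Keratinocytes that leave the basal layer switch on this gene cluster as they rise through the granular layer. Involucrin is laid down early under the plasma membrane, and loricrin, SPRR and LCE proteins are then cross-linked to it by transglutaminases to form the cornified envelope. Filaggrin and its relatives are stored in keratohyalin granules, bind keratin filaments and are later cut down to amino acids that hold water. At this age the mouse skin barrier has normally formed, so RNAs such as those of Flg and Ivl are abundant in healthy epidermis. Other members of the cluster were dim in wild type here.

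All values are log2 values of a probe set, and a difference is Rptor cKO minus wild type on that scale. Rptor itself read 6.54, 6.82 and 6.72 on the Rptor cKO arrays and 6.98, 7.46 and 7.0 on the wild-type arrays, a difference of -0.46 (SE 0.15, limma adjusted p = 0.099). The Rptor cKO arrays lay lower without overlap, but the threshold was missed, and since the deleted exons are unknown the value bears little on the labels. Keratinocyte markers were bright on every array (Krt5 11.93 or more, Krt10 10.54 or more). Xist and Y-linked genes read 2 females (Rptor cKO arrays 1 and 3) and 1 male among the Rptor cKO embryos, and 3 males among the wild type. Without Rptor cKO array 2, the male, sex and genotype therefore cannot be told apart. Summed levels of 7 fibroblast markers were 9.86 to 10.20 in Rptor cKO and 9.34 to 9.38 in wild type, and 4 of the 7 rose (Dcn by 0.94, Lum by 1.43, Col1a1 by 0.90, Col3a1 by 0.68). With 1 array left out, 1 to 6 of them were called, the fewest without Rptor cKO array 2 or wild-type array 6. Of 6 spinous markers 4 fell, among them Krt1 by 2.07 and Krt10 by 1.76 (2 of 6 without Rptor cKO array 2 or wild-type array 6). Of 8 basal markers 1 fell and 2 rose: the basal keratin Krt15 fell by 2.31 (adjusted p = 0.00693), and the integrin genes Itga3 and Itgb4 rose by 1.41 (0.00267) and 0.98 (0.00293). The other 5 did not pass, among them Krt14 with a difference of 0.26 and Krt5 with 0.04, which was -0.036 with array medians subtracted and -0.094 after quantile normalization. In such bulk tissue, fewer granular cells and less RNA per granular cell cannot be told apart. The part of fibroblast RNA, embryo sex and the spinous and basal markers in the results below was not tested.

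Of the 44 members, 18 fell in Rptor cKO epidermis and none rose, at an adjusted p under 0.05 over all 30142 genes. The fallen share was 40.9% of members, against 5.95% of all genes tested, and 3.63% of all genes rose. With array medians subtracted, the share of fallen genes among all called genes went from 62.1% to 75.8%, and 16 members were called. Groups did not overlap, with Rptor cKO lower, in 23 members (52.3%, against 12.5% of all genes), and with Rptor cKO higher in 2 (4.55%, against 16.5%). The median difference was -0.93 over the members and 0.05 over all genes. At an unadjusted p under 0.05 the fit held 24 members (54.5%) and 7013 of all genes (23.3%).

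The calls were grouped by subfamily, as the plot of differences along the chromosome shows. Lce1 genes, Lor, Ivl, Kprp, Crct1, Hrnr, Flg, Flg2 and Tchh supplied the 18 calls, and no Lce3 or Sprr gene passed in either direction. Lor lies at one end of the cluster next to the Sprr block, and Ivl lies at the block's far side. Lor and Ivl both fell, whereas the 13 Sprr genes between them had a median difference of 0.08. Several of these 13 were dim, and their differences say little. Brighter ones went both ways, none past the threshold. Sprr2b (-1.03), Sprr2d (-0.78) and Sprr2h (-0.76) lay below 0, and Sprr1a (0.64) and Sprr1b (0.39) above. Probe sets naming several Sprr2a copies, which are no members, lay below 0 (-1.76 and -0.8). In the same way the 6 Lce3 genes (92925287 to 92993426) sit between Lce1l on one side and Crct1 and Lce1m on the other, and all 3 of these flanking genes fell. Whether the subfamilies differ from each other was not tested.

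**Figure D1:**
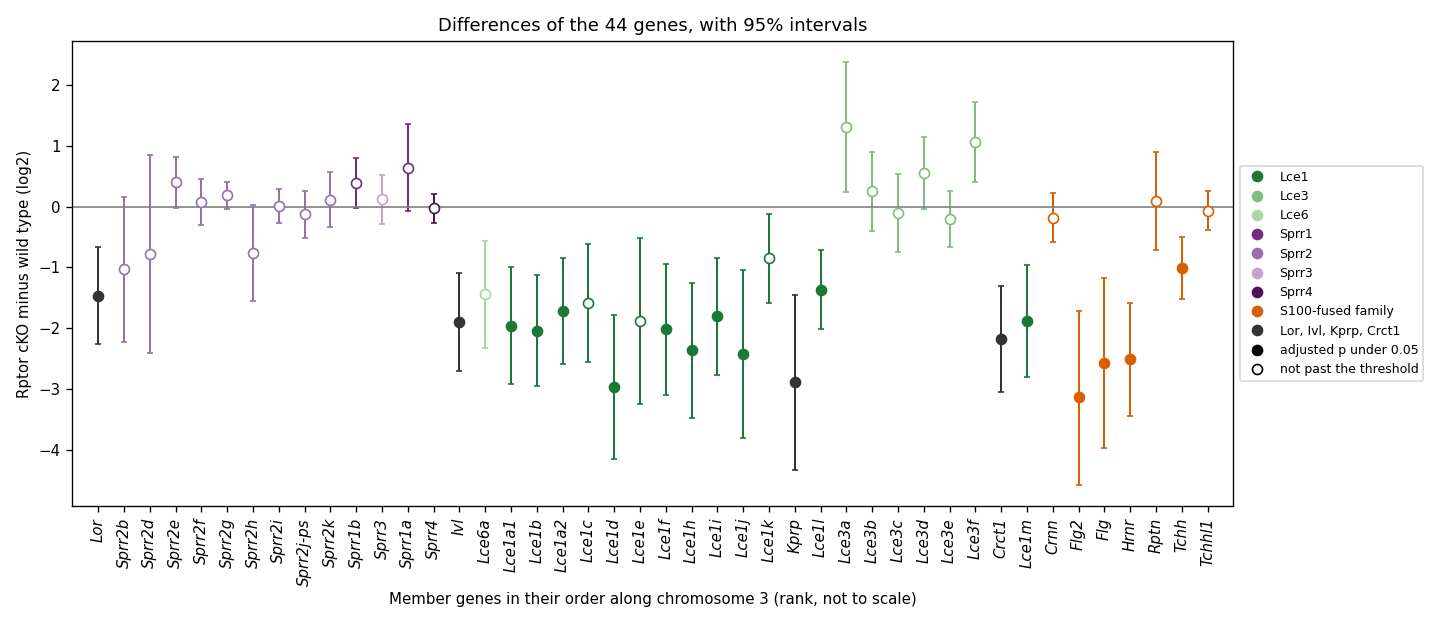
Difference of each of the 44 genes (log2, Rptor cKO minus wild type, vertical axis) with its moderated 95% interval, ordered by position along chromosome 3; colour gives the subfamily, and filled points passed the adjusted threshold. The 18 filled points all lie below 0, and the Sprr and Lce3 genes, all open points, lie between fallen genes.

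Loricrin, the glycine-rich bulk protein of the envelope, was lower on every Rptor cKO array. Lor read 7.99, 7.99 and 8.83 on the Rptor cKO arrays and 10.50, 9.17 and 9.53 on the wild-type arrays, a 2.76-fold fall (-1.47, SE 0.35, limma adjusted p = 0.0350). Its closest pair of arrays across groups were Rptor cKO array 3 and wild-type array 5. Without wild-type array 4 the difference was -1.08, and the call was lost without Rptor cKO array 1 or 2 or wild-type array 6 (adjusted p = 0.0956, 0.141 and 0.0805).

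Involucrin, the early scaffold to which other envelope proteins are joined, fell 3.73-fold. Ivl read 9.38, 9.16 and 10.26 in Rptor cKO and 12.15, 10.92 and 11.43 in wild type (-1.90, SE 0.35, limma adjusted p = 0.0136). The groups were separated by a wider gap than in Lor, and again Rptor cKO array 3 was the highest of its group and wild-type array 4 the highest of the other. Leaving out Rptor cKO array 2 ended the call (adjusted p = 0.0658).

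Kprp, a keratinocyte proline-rich protein, fell 7.42-fold. It read 7.82, 7.89 and 10.22 in Rptor cKO and 12.38, 10.95 and 11.27 in wild type (-2.89, SE 0.63, limma adjusted p = 0.0254). Rptor cKO arrays 1 and 2 lay close together and array 3 lay nearer to the wild type than to them. Without array 3 the Kprp fall was 12.8-fold. Crct1, a small cysteine-rich protein gene beside the Lce3 block, read 6.99, 6.95 and 8.15 against 10.26, 9.29 and 9.07, a 4.53-fold fall (-2.18, SE 0.38, adjusted p = 0.0114). The same 2 Rptor cKO arrays were the low ones, with no overlap between groups. Leaving out Rptor cKO array 2 ended both calls (adjusted p = 0.110 for Kprp and 0.0591 for Crct1). Kprp also missed the threshold when Rptor cKO array 1 was left out (0.0693), and likewise wild-type array 4 (0.0559) or 6 (0.0707).

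Among the S100-fused proteins, which join a calcium-binding S100 domain to long repeats, the 3 filaggrin-type genes fell together. Hornerin, a repeat protein of keratohyalin granules, read 9.25, 7.94 and 9.42 in Rptor cKO and 12.01, 10.87 and 11.28 in wild type. The 5.71-fold fall of Hrnr (-2.51, SE 0.41, limma adjusted p = 0.00902) had the lowest adjusted p of all members. It was also the sole member that stayed called whichever array was left out, with adjusted p = 0.0230 without Rptor cKO array 2.

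Filaggrin, the keratin-bundling protein whose breakdown supplies natural moisturizing factor, read 7.84, 9.37 and 10.81 in Rptor cKO. In wild type Flg read 12.26, 11.68 and 11.80. The fall was 5.94-fold (-2.57, SE 0.61, limma adjusted p = 0.0357). The Rptor cKO arrays were spread over a far wider range (SD 1.48) than the wild-type arrays (SD 0.31), and array 1 was the lowest. Flg2, which encodes a filaggrin relative of the upper epidermis, showed the same order of arrays. It read 6.71, 7.80 and 9.65 in Rptor cKO and 11.69, 10.85 and 11.05 in wild type, an 8.84-fold fall (-3.14, SE 0.63, adjusted p = 0.0181) and the largest of the 44 differences. Without Rptor cKO array 1 the Flg difference was -1.82 and that of Flg2 -2.47, both still called (0.0342 and 0.0296). The falls were 9.89-fold for Flg and 15.4-fold for Flg2 without Rptor cKO array 3. Without Rptor cKO array 2 neither was called (0.123 and 0.0849), and the same held without wild-type array 6 (0.0977 and 0.0605). Flg alone was also lost without wild-type array 4 (0.0799) or 5 (0.0677).

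**Figure D2:**
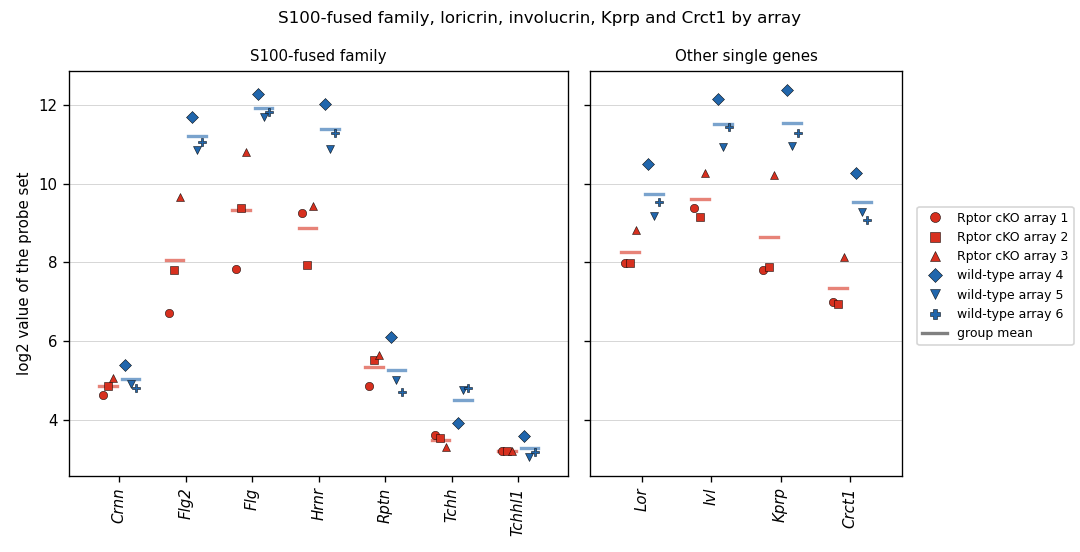
Log2 value of the probe set (vertical axis) of the 7 S100-fused genes and of Lor, Ivl, Kprp and Crct1 on each array; bars are group means of 3 arrays, red for Rptor cKO and blue for wild type. In Flg2, Flg, Hrnr, Lor, Ivl, Kprp and Crct1 every red point lies below every blue point, and Crnn and Rptn overlap.

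Trichohyalin, which hardens the inner root sheath of the hair follicle, was dim and followed another order of arrays. Tchh read 3.63, 3.54 and 3.33 in Rptor cKO and 3.94, 4.78 and 4.81 in wild type (-1.01, SE 0.22, limma adjusted p = 0.0268). All 3 Rptor cKO values lay under that array's median of negative control probe sets (3.81 to 4.11 over the arrays), so the fall was at least 1.49-fold. Wild-type array 4, the highest in the other 17 fallen members, was here the lowest of its group. Without it the difference was -1.29 (adjusted p = 0.00212), and leaving out any other array ended the call, with adjusted p from 0.0512 (Rptor cKO array 1) to 0.0969 (Rptor cKO array 2).

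Inner root sheath keratins had the same low array, which was not particular to them. Krt71 read 4.88, 5.08 and 5.32 in Rptor cKO and 5.24, 6.63 and 6.49 in wild type (-1.02, adjusted p = 0.0973). Krt25 read 4.53, 5.32 and 5.90 against 5.54, 6.69 and 7.21 (-1.23, adjusted p = 0.140). Neither passed, and on both the groups overlapped at wild-type array 4. Without that array both were called lower, Krt71 by 1.46 (adjusted p = 0.00216) and Krt25 by 1.70 (0.0257). S100a3, a hair cuticle protein gene of the same locus, fell by 1.44 (5.52, 5.93 and 6.26 against 6.40, 7.94 and 7.70, adjusted p = 0.0478). That call too held without wild-type array 4 (-1.91, 0.00273) and was lost without any other array, with adjusted p from 0.0561 (Rptor cKO array 3) to 0.152 (wild-type array 6). Over 7 hair follicle markers the summed level was 10.65 to 10.96 in Rptor cKO and 10.20 to 10.75 in wild type, 1 rose and none fell. The rise was Edar (1.08, limma adjusted p = 0.00387). Wild-type array 4 was also the lowest of its group in Lhx2 (7.54), Sox9 (7.66), Krt79 (8.60) and Edar (8.01), and the highest in Shh (5.89). The part of follicle content in the Tchh result was not tested.

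**Figure D3:**
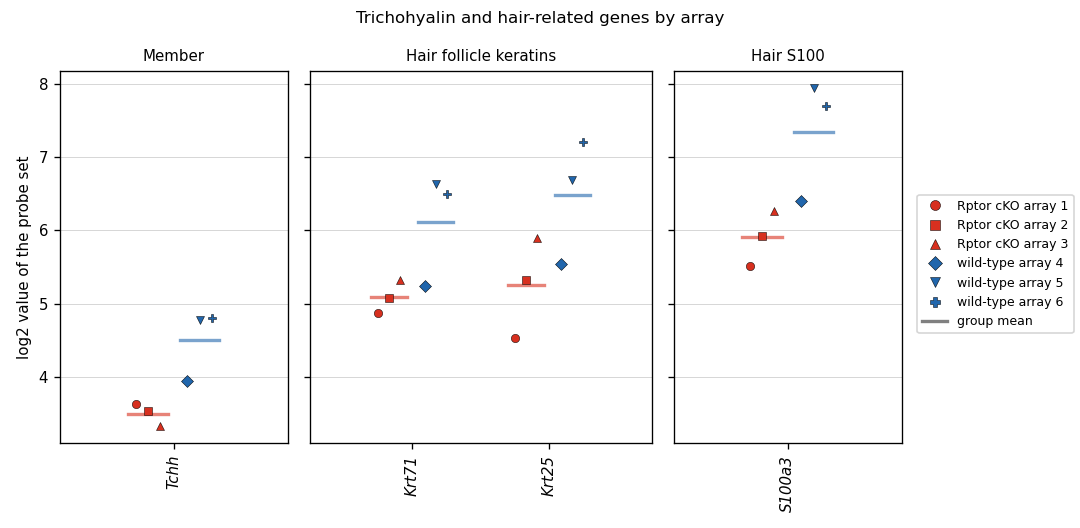
Log2 value (vertical axis) of Tchh, of the inner root sheath keratins Krt71 and Krt25 and of S100a3 on each array, with bars for group means of 3 arrays. Wild-type array 4 (diamond) is the lowest wild-type point in all 4 genes.

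The other S100-fused members did not pass. Crnn, which encodes cornulin of stratified epithelia, had a difference of -0.19 (95% interval -0.59 to 0.22) and Rptn, for repetin, of 0.09 (-0.71 to 0.89). Rptn was read highest on wild-type array 4 (6.10) and next highest on Rptor cKO arrays 3 (5.66) and 2 (5.54), with full overlap. Tchhl1, between 3.06 and 3.60, stayed below each array's negative control median on all 6 arrays and was not read further.

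Every one of the 13 Lce1 genes read lower on all 3 Rptor cKO arrays than on all 3 wild-type arrays, and 10 passed the threshold. These genes encode small cysteine- and glycine-rich proteins added to the envelope late in cornification. Differences ran from -2.97 for Lce1d to -0.85 for Lce1k, with a median of -1.88. Lce1d read 6.93, 6.82 and 8.65 in Rptor cKO and 11.30, 10.07 and 9.94 in wild type, a 7.81-fold fall (SE 0.52, limma adjusted p = 0.0112). The gap between the groups on Lce1d exceeded 1 log2 unit even at its closest arrays, and without Rptor cKO array 3 the fall was 11.8-fold.

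Lce1j fell 5.37-fold and Lce1h 5.12-fold. Lce1j read 5.67, 5.95 and 7.60 against 10.07, 8.24 and 8.19 (-2.42, SE 0.60, limma adjusted p = 0.0424). Lce1h read 6.41, 6.72 and 7.98 against 10.38, 8.83 and 8.99 (-2.36, SE 0.48, adjusted p = 0.0206). In both genes wild-type array 4 stood apart from the other wild-type arrays, which agreed closely with each other. Without it Lce1h stayed called (-1.87, adjusted p = 0.0277) and Lce1j did not (-1.81, 0.0655). The Lce1j fall was 8.13-fold without Rptor cKO array 3.

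At the other end of the block, Lce1b read 9.16, 9.09 and 10.54 in Rptor cKO and 12.23, 11.38 and 11.29 in wild type, a 4.11-fold fall (-2.04, SE 0.40, limma adjusted p = 0.0169). For Lce1a1 the values were 9.42, 8.64 and 10.38 against 12.06, 11.17 and 11.08, a 3.89-fold fall (-1.96, SE 0.42, adjusted p = 0.0238). Lce1m, which lies apart from the other Lce1 genes beyond the Lce3 block, read 7.68, 7.04 and 8.85 against 10.14, 9.56 and 9.51 (-1.88, SE 0.40, adjusted p = 0.0240). Its fold, 3.68, was within the range of the main Lce1 block.

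The remaining calls were Lce1f (-2.02), Lce1i (-1.80), Lce1a2 (-1.72) and Lce1l (-1.37), with adjusted p from 0.0223 to 0.0331. Lce1e (-1.88, SE 0.60, adjusted p = 0.0935), Lce1c (-1.59, SE 0.43, 0.0542) and Lce1k (-0.85, SE 0.32, 0.150) missed the threshold without any overlap of their groups. The edges were narrow for Lce1e, with 7.18 on Rptor cKO array 3 and 7.22 on wild-type array 5. They were also narrow for Lce1k, with 5.82 on Rptor cKO array 3 and 5.83 on wild-type array 6. For Lce1c they lay further apart, with 8.87 on Rptor cKO array 3 and 9.43 on wild-type array 5. A probe set that names both Lce1g and Lce1l, and so is no member, fell by 2.54 (5.05, 5.16 and 6.84 against 9.5, 7.49 and 7.66, adjusted p = 0.0371). Lce1 genes are related copies, and whether a probe set also reads RNA of its neighbours was not tested, so the 13 values may not be independent.

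Seen by array, the median distance of the Lce1 genes from their wild-type means was -2.34 and -2.39 log2 units on Rptor cKO arrays 1 and 2 and -1.06 on array 3. It was 0.80 on wild-type array 4 and -0.32 and -0.44 on wild-type arrays 5 and 6. In all 13 genes Rptor cKO array 3 and wild-type array 4 were the highest of their groups. All 13 differences stayed below 0 in all 14 alternative analyses. With no overlap of groups, leaving out 1 array could not have turned any of them. The calls were fewer when an array was left out: none of the 13 without Rptor cKO array 2, 2 without array 1 and 12 without array 3. Among the wild-type arrays, 6 were called without array 4, 7 without array 5 and 3 without array 6.

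Lce6a, the single member of its subfamily, read 3.79, 3.73 and 3.93 in Rptor cKO and 6.32, 4.62 and 4.85 in wild type (-1.44, SE 0.38, limma adjusted p = 0.0506). The groups did not overlap, and the Rptor cKO values were at the level of the negative controls, 2 of them under that array's median. The gene was called without wild-type array 4 (-0.92, adjusted p = 0.00522) and without wild-type array 5 (-1.77, 0.0293).

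**Figure D4:**
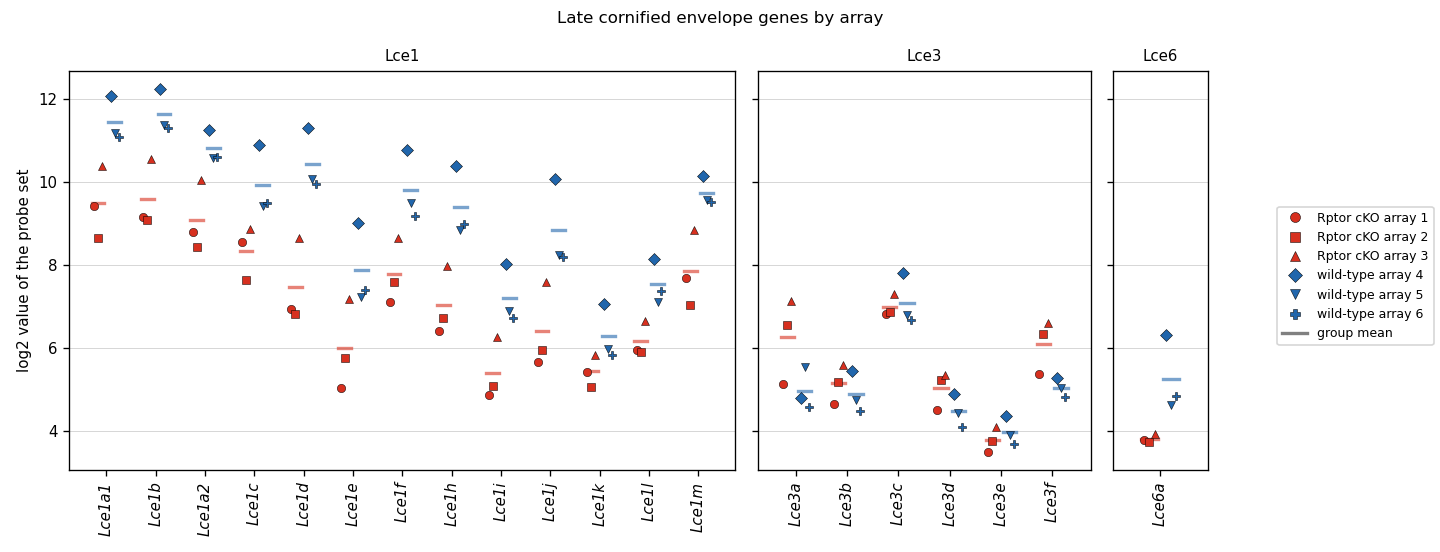
Log2 value of the probe set (vertical axis) of the 13 Lce1, 6 Lce3 and 1 Lce6 genes on each array, with bars for group means of 3 arrays, red for Rptor cKO and blue for wild type. All red Lce1 points lie below the blue ones of the same gene with array 3 (triangle) the highest red point, whereas in Lce3a and Lce3f the red means lie above the blue.

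The Lce3 genes, which encode envelope proteins known to be induced when the skin barrier is damaged, gave no call in either direction. The median difference was 0.40, and 4 of 6 differences lay above 0. Lce3f read 5.38, 6.33 and 6.61 in Rptor cKO and 5.28, 5.04 and 4.82 in wild type (1.06, 95% interval 0.41 to 1.72, limma adjusted p = 0.0548). Its groups did not overlap, with Rptor cKO array 1 only just above wild-type array 4. Lce3a read 5.13, 6.56 and 7.13 against 4.79, 5.53 and 4.58 (1.31, interval 0.24 to 2.38, adjusted p = 0.130). Here Rptor cKO array 1 fell inside the wild-type range and arrays 2 and 3 lay above it.

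Without Rptor cKO array 1 both genes were called higher, Lce3a by 1.88 (adjusted p = 0.0142) and Lce3f by 1.43 (0.0056). That array was the lowest of its group in all 6 Lce3 genes, against 40.9% of all genes. Lce3d read 4.50, 5.22 and 5.36 against 4.90, 4.43 and 4.09 (0.55, interval -0.04 to 1.15). Lce3b had a difference of 0.25 (-0.40 to 0.90), Lce3c of -0.10 (-0.74 to 0.54) and Lce3e of -0.20 (-0.66 to 0.26), all with overlapping groups. Rptor cKO array 3 was the highest of its group in all 6, as in the Lce1 genes.

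The mucosal keratins Krt4 and Krt13, listed as markers of periderm and simple epithelium, were also lowest among the Rptor cKO arrays on array 1. Krt4 read 4.58, 6.73 and 6.64 in Rptor cKO and 4.55, 5.47 and 4.34 in wild type. Krt13 read 5.55, 7.93 and 7.78 against 6.55, 7.28 and 5.94. Over the 6 markers of that list the summed level was 8.35, 9.55 and 9.5 against 8.52, 8.95 and 8.41, with 1 rise and no fall. The rise was Krt18 (0.43, adjusted p = 0.0205), a call lost on leaving out any single array other than wild-type array 6, with adjusted p up to 0.0713 (Rptor cKO array 2), and lost with array medians subtracted. Without Rptor cKO array 1 the list held 3 rises, Krt4 among them (1.90, adjusted p = 0.0154). Their part in the spread of the Lce3 genes was not tested. The wound keratins Krt16 and Krt17 rose by 2.25 and 0.77, with Krt16 at 10.44, 10.52 and 11 against 9.12, 7.91 and 8.18. Krt16 stayed called whichever array was left out, and Krt17 kept its call when Rptor cKO array 1 was the one left out (adjusted p = 0.00996) and lost it without any other, reaching 0.148 without Rptor cKO array 2.

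Because the related Lce1 and Lce3 genes gave 10 calls and no call, the bases before their start sites are shown for comparison. A start region from RefSeq (GRCm38.p6, 250 bases before to 50 after the start, 300 in all) was at hand for 39 members, 12 of them Lce1 and 6 Lce3. Below are the 90 bases before the start, read in the direction of transcription. Capitals mark a TATAAA box or its variants AATAAAA and, in some Lce3 genes, GATAAAA. Further capitals mark GTCTCACA in Lce1 genes, and in Lce3 genes CATGCTTG with, in Lce3d and Lce3f, ATCACACA. The 8-letter sequences were picked after the promoters had been read.
Lce1d (chr3:92687211-92687300, minus strand): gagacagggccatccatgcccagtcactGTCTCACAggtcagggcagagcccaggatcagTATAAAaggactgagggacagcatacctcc
Lce1h (chr3:92765066-92765155, minus strand): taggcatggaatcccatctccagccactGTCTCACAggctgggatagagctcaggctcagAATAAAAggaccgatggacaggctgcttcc
Lce1a2 (chr3:92670316-92670405, minus strand): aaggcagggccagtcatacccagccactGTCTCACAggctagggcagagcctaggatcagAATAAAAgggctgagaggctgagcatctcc
Lce1j (chr3:92790515-92790604, minus strand): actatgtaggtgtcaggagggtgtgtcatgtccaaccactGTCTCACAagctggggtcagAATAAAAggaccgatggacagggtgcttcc
Lce3a (chr3:92926231-92926320, minus strand): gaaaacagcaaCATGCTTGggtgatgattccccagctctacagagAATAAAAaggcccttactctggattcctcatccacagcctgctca
Lce3d (chr3:92957300-92957389, plus strand): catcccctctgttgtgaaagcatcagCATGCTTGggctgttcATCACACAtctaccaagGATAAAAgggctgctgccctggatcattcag
Lce3f (chr3:92992127-92992216, plus strand): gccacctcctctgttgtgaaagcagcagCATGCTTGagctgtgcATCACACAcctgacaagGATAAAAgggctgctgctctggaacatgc

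The 4 Lce1 genes printed share GTCTCACA before an A- and T-rich box, with a shorter stretch between them in Lce1j, and the Lce3 genes carry other letters there. Searched on both strands of the 300 bases, GTCTCACA was found in 8 of 12 Lce1 and in none of 6 Lce3 start regions, in Sprr2d and Sprr2e, and in 1.09% of all 32851 start regions. The 4 printed Lce1 genes were among these 8. Of these 8, Lce1a1, Lce1b, Lce1a2, Lce1d, Lce1h, Lce1i and Lce1j were called and Lce1e was not. Of the Lce1 regions without it, those of Lce1l and Lce1m belong to called genes and those of Lce1c and Lce1k do not. Whether the motif goes with the calls was not tested. AGATCTTG was found in 8 of 12 Lce1 regions, in none of the other 27 members and in 1.31% of all regions. CATGCTTG was found in 5 of 6 Lce3 regions, in none of the other 33 members and in 0.992% of all. ATCACACA was found in 4 of 6 Lce3 regions, in none of the other 33 and in 1.28% of all.

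The letters of the box were counted in the same way, on both strands of the 300 bases and not only near the start. A region can count for several of them, as Lce3f did for AATAAAA and GATAAAA. The canonical TATAAA was found in 2 of 12 Lce1 regions (Lce1d and Lce1m) and 1 of 6 Lce3 regions, against 20 of 39 members and 13.6% of all regions. AATAAAA was found in 8 of 12 Lce1 and 2 of 6 Lce3 regions (8.39% of all), and GATAAAA in none of 12 Lce1 and 5 of 6 Lce3 regions (3.45% of all). Aligned over the 300 bases, Lce1 regions had a median identity of 61.3% with each other over 66 pairs, and Lce3 regions 57.8% over 15 pairs. Lce1 set against Lce3 regions gave 49.6% over 72 pairs, close to the 48.0% of Lce1 against S100-fused regions. Shared letters in gene copies of common descent are a description and name no factor.

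For contrast, 90 bases before the start of 3 fallen genes of other families are shown. Capitals mark TATAAA and, in Lor, the AP-1 motif.
Lor (chr3:92083143-92083232, minus strand): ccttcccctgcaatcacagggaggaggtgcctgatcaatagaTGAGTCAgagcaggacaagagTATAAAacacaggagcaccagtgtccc
Hrnr (chr3:93319659-93319748, plus strand): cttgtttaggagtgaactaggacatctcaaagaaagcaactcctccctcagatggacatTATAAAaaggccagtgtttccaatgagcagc
Flg (chr3:93273456-93273545, plus strand): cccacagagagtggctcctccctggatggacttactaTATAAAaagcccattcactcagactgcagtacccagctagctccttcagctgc

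For AP-1, the target of Jun and Fos proteins, the motif TGANTCA was searched with any base at N. It was found in 16 of 39 members and 7.81% of all regions, and some matches may not be AP-1 sites. It was present in 7 of 7 Sprr2 and 2 of 2 Sprr1 regions, in Lor and Ivl and in 5 of 7 S100-fused regions, and in none of 12 Lce1 and 6 Lce3 regions. Members with the motif thus include genes that fell (Lor, Ivl, Flg, Flg2) and a family without a call (Sprr2). The antioxidant element TGACNNNGC was found in 3 of 6 Lce3 and 1 of 12 Lce1 regions, against 12.4% of all. The KLF-type box CACCC was found in 20 of 39 members (51.3%) and 57.5% of all regions.

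No Sprr gene passed the threshold. Apart from the transcribed pseudogenes Sprr2g and Sprr2j-ps, these genes encode cross-bridging proteins of the envelope whose levels differ between epithelia and rise under stress. Over the 13 of them the median difference was 0.08, from -1.03 for Sprr2b to 0.64 for Sprr1a, and adjusted p ran from 0.232 to 0.979. Sprr1a read 4.83, 5.55 and 5.99 in Rptor cKO and 4.33, 5.23 and 4.88 in wild type (interval -0.07 to 1.35). Sprr1b read 6.56, 6.52 and 6.87 against 6.67, 6.07 and 6.04 (0.39, interval -0.03 to 0.80). On both genes the groups overlapped. Without wild-type array 4 Sprr1b was called higher (0.59, limma adjusted p = 0.0331).

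Single arrays set the largest Sprr2 differences, and whether probe sets of these related copies read each other's RNA was not tested. Sprr2b read 5.81, 8.0 and 8.04 in Rptor cKO and 8.51, 8.22 and 8.23 in wild type, so that Rptor cKO array 1 alone lay far down. Without it the difference went from -1.03 to -0.30. Sprr2d read 5.05, 5.91 and 5.87 against 8.35, 5.48 and 5.34, where wild-type array 4 alone stood out. Without that array the difference turned from -0.78 to 0.20. Sprr2h leaned the same way (7.52 on wild-type array 4, 6.34 or less on the others) with -0.76 and, without it, -0.35.

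The Sprr2a copies are read by 2 probe sets that name several genes and so are no members. The brighter, naming Sprr2a1, Sprr2a2 and Sprr2a3, read 6.45, 9.73 and 9.88 in Rptor cKO and 10.42, 10.48 and 10.43 in wild type (-1.76, limma adjusted p = 0.227). As in Sprr2b, Rptor cKO array 1 lay far below the other 5 arrays, which were close together. The second, naming Sprr2a1 and Sprr2a2, read 4.85, 5.70 and 5.77 against 6.38, 6.25 and 6.11 (-0.80, adjusted p = 0.0658), without overlap. Krt4 and Krt13 were low on the same Rptor cKO array, as given above. On that array Krt4 read 4.58 and Krt13 5.55. On wild-type arrays 4 and 6, where the brighter probe set read 10.42 and 10.43, Krt4 read 4.55 and 4.34 and Krt13 6.55 and 5.94. The part of Krt4 and Krt13 in these values was not tested.

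The remaining Sprr genes were dim. Sprr2e read 4.09 to 5.10 over the arrays, and Sprr2f, Sprr2g, Sprr2i, Sprr2j-ps, Sprr2k, Sprr3 and Sprr4 read no more than 4.25 on any array. Sprr2g and Sprr3 stayed below each array's negative control median on all 6 arrays, and Sprr2k on all 3 wild-type arrays. Their differences, from -0.12 to 0.40, say little at this signal. Sprr2g was higher in Rptor cKO without overlap (0.19), within the dim range.

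**Figure D5:**
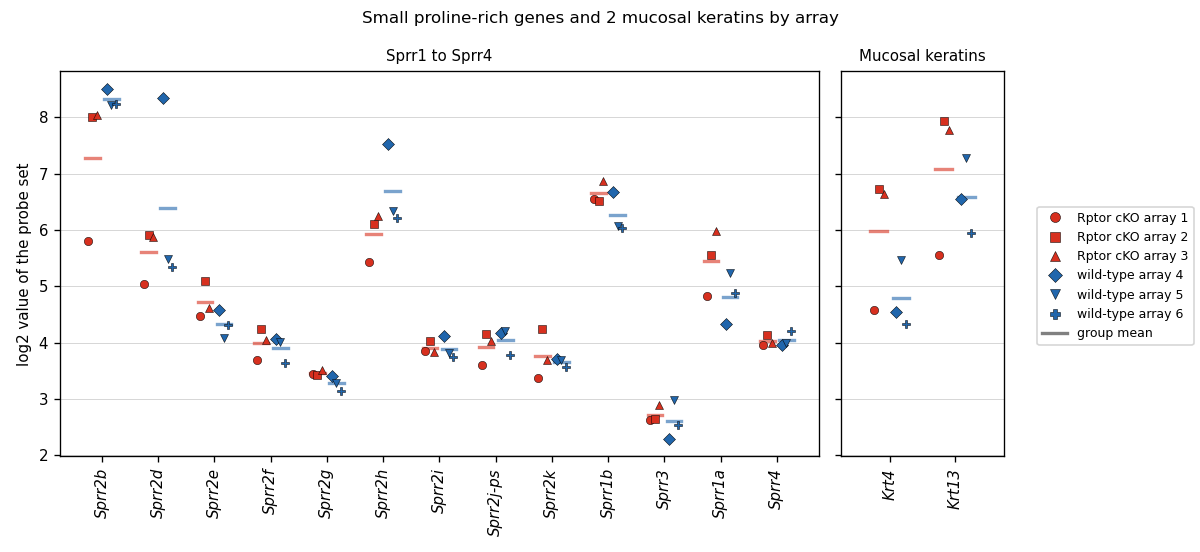
Log2 value of the probe set (vertical axis) of the 13 Sprr genes and of Krt4 and Krt13 on each array, with bars for group means of 3 arrays, red for Rptor cKO and blue for wild type. Rptor cKO array 1 (circle) is the lowest red point of Sprr2b, Krt4 and Krt13, and wild-type array 4 (diamond) is the high point of Sprr2d and Sprr2h.

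The members varied more between embryos of 1 group than the median gene did. This comparison was not matched for signal, and the dim Sprr4 had an SD of 0.10 in Rptor cKO and 0.13 in wild type. The median SD over 3 arrays was 0.48 in Rptor cKO and 0.50 in wild type for the members, against 0.12 and 0.13 for all genes. Much of it ran in 1 order: wild-type array 4 was the highest of its group in 38 of 44 members (86.4%, against 34.0% of all genes), and Rptor cKO array 3 in 36 (81.8%, against 29.4%). Krt1 and Krt10 shared both, with 12.73 and 12.97 on wild-type array 4, although the other wild-type arrays lay close behind (12.50 or more and 12.82 or more). On the Rptor cKO side they read 11.63 and 12.11 on Rptor cKO array 3 and at most 10.30 and 10.78 on the other Rptor cKO arrays. What sets these embryos apart was not tested, and no slide or scan batch is named in the sources used here.

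Genes that act with these proteins were read in lists chosen with earlier results of these data known. Of 12 measured genes for cross-linking and the envelope scaffold, 10 fell and none rose (median difference -1.35). Of all genes tested, 5.95% fell and 3.63% rose. Tgm3, a transglutaminase of the granular layer, read 5.02, 4.92 and 6.00 in Rptor cKO and 8.34, 8.06 and 8.27 in wild type, a 7.54-fold fall (limma adjusted p = 0.0012). Tgm5 fell by 1.4, Calml3, a calmodulin-like protein, by 3.18 and Krtdap, a protein of differentiating keratinocytes, by 1.97. Tgm1, the main transglutaminase of the envelope, had a difference of -0.87 and did not pass (adjusted p = 0.0963). The list held 5 falls without Rptor cKO array 2, 6 without array 1, and 7 to 11 without another array.

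The filaggrin-processing list had 11 falls and no rise among 17 genes, with a median of -1.33 (5.95% of all genes fell). Casp14, a protease that degrades filaggrin, read 6.58, 6.31 and 8.42 against 11.51, 10.52 and 10.89, and Hal, which converts filaggrin-derived histidine to urocanic acid, read 4.35, 4.50 and 7.14 against 10.96, 9.97 and 10.30. Rptor cKO array 3 was again the highest of its group on both. Padi1, a deiminase that modifies filaggrin, fell by 1.75 and Capn1, a calpain, by 0.70. Furin (-0.28) and Padi4 (0.02) did not pass. The list held 3 falls without Rptor cKO array 2, and 8 to 11 without any other single array.

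Of 30 measured transcription factors and cofactors that general knowledge ties to this cluster, 6 fell and 3 rose. Their median was -0.12, and among all genes 5.95% fell and 3.63% rose. Zfp750, a zinc finger factor of late differentiation, fell by 1.30, Grhl1, a grainyhead factor, by 1.14, Klf4 by 1.10 and Cebpa by 0.95. Klf4, a factor needed for barrier formation, read 7.86, 8.25 and 8.53 against 9.56, 9.17 and 9.21, with no overlap (limma adjusted p = 0.00924). Satb1, a chromatin organiser of the cluster, rose by 0.55, and Hr, the hairless corepressor, and the receptor gene Notch1 by 0.45 each. None of these 3 rises was called with array medians subtracted, or when Rptor cKO array 2 or wild-type array 6 was left out. Without Rptor cKO array 2 there were 3 falls.

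Among 13 NRF2 targets 2 fell, Me1 by 1.00 and Srxn1 by 0.81, none rose, and the median was -0.04 (5.95% of all genes fell). Nfe2l2, which encodes NRF2, had a difference of 0.14 (adjusted p = 0.430). Of 17 measured S100 and other genes of the same locus outside the members, 1 fell (S100a3) and 2 rose, with a median of -0.02. The single fall is close to the 5.95% share of all genes that fell, and 3.63% of all genes rose. S100a6, a calcium-binding protein, read 6.98, 7.51 and 7.37 against 5.93, 6.62 and 6.56 (0.92, limma adjusted p = 0.0286) and S100a10, the annexin A2 partner, rose by 0.60 (0.0467). Both rises were lost with array medians subtracted, and on leaving out Rptor cKO array 2 or wild-type array 6. The S100a6 call was also lost without Rptor cKO array 3 (0.0733), and that of S100a10 without any array but wild-type array 5 (0.0108).

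The number of called members depended on which arrays were used. All 18 called ones kept a negative difference in all 14 alternatives. Their groups did not overlap, so leaving out 1 array could not have turned a sign. Several of the other alternatives left the difference itself unchanged, so the kept direction adds little. Without Rptor cKO array 1 there were 7 calls, without array 2 there was 1 (Hrnr), without array 3 there were 19. The fit without array 2 sets only female Rptor cKO embryos against male wild types, so sex and genotype cannot be told apart there. Without wild-type arrays 4, 5 and 6 there were 13, 14 and 6. With embryo sex as a term, which sets Rptor cKO array 2 against the 3 wild-type arrays, 3 members were called (Hrnr, Lce1a1 and Lce1m) and the median Lce1 difference was -2.39.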

How the data were processed

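The deposited table holds log2 values of 72688 probe sets on 6 arrays; RMA, Partek and build mm10 are named in the submitters' processing notes, without tool versions. The log2 scale was read from the values (1.34 to 14.04). RMA makes array distributions alike, so a general change of RNA per cell cannot be seen. Probe sets were named through the platform annotation, with 827 symbols updated by Entrez ID: 30604 named 1 gene, 2146 several and 33206 none, and 6732 controls were left out. Per gene the probe set with the highest mean was used (30142 genes), with no filter on dim values.

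Differences were fitted with lmFit and eBayes of limma 3.58.1 (R 4.3.3), group as the sole term, two-sided, Benjamini-Hochberg over all genes, threshold 0.05; 3 against 3 arrays limit precision, and an exact permutation test of 1 gene could not go below p = 0.1. The procedure was tested on simulated data. The series calls the arrays biological replicates. Python 3.11.15, pandas 2.3.3 and matplotlib 3.10.9 did the rest.

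Members, lists and motifs were chosen with earlier results of these data known. All members may be named, and from each list up to 4 genes per direction with the smallest p, or else 2; further genes were named after their values were seen. For folds written "at least", each array's value was first raised to its negative control median.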

Additional observations from a re-analysis of the deposited data

How the results depend on the processing

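Alternatives changed how many members passed. The direction of members without overlap could not turn when 1 array was left out. Changed genes numbered 2887, and 886 to 2443 with 1 array left out, 8 without variance moderation (5796 at an unadjusted p under 0.05) and 642 with embryo sex as a term. Members called lower numbered 18, and 1 to 19 with 1 array left out, 9 with trended robust moderation, 3 with sex as a term and 0 with an ordinary linear model in place of limma's moderation, where 18 had an unadjusted p under 0.05. Members called higher numbered 0, and 0 to 2 with 1 array left out (Lce3a and Lce3f without Rptor cKO array 1, Sprr1b without wild-type array 4) and 1 with the dimmest 25% of genes left out (Lce3f, 41 members tested). Scaling moved the arrays by 0.07 between groups. Genes whose sign turned were not called, and all but Sprr2d (-0.78) had differences from -0.12 to 0.12. Over arrays left out the differences ran from -1.31 to 0.20 for Sprr2d, -0.051 to 0.23 for Sprr2f, -0.064 to 0.12 for Sprr2i, -0.26 to 0.036 for Sprr2j-ps, -0.13 to 0.31 for Sprr2k, -0.039 to 0.31 for Sprr3, -0.083 to 0.047 for Sprr4, -0.31 to 0.25 for Lce3c, -0.19 to 0.50 for Rptn, -0.18 to 0.09 for Tchhl1 and -0.046 to 0.18 for Krt5. Sprr2i read -0.063 and Krt5 -0.036 with array medians subtracted, and -0.07 and -0.094 after quantile normalization. With sex as a term Sprr2j-ps read 0.098 and Sprr4 0.085. The cause of these changes was not tested. No paired analysis was possible because the groups share no replicate numbers. Signal near the negative controls limits the dim Sprr genes, Lce6a, Tchh and Tchhl1. The 95th percentile of the negative controls was higher, 7.46 to 8.07 over the arrays. The Rptor cKO values of the called Lce1i, Lce1j and Lce1l lay under it. So did all Sprr1 values and all Lce3 values but that of Lce3c on wild-type array 4. Background may limit these genes too.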
